A study of Mus musculus with 18 samples.

Results

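The comparison described here is that of quadriceps muscle labelled as knockout for Pofut1 in its fibres with quadriceps muscle of floxed controls, both from C57/Bl6 mice of 17 months. The label is not borne out by the Pofut1 level of 1 of the 3 knockout libraries, number 40, so knockout libraries are named here by their labels only. It uses 6 of the 18 RNA sequencing libraries of the series, 3 of knockout muscle (numbered 17, 40 and 45 in the labels) and 3 of floxed muscle (5, 46 and 48), chosen by their labelled genotype and age. Floxed mice carried Pofut1 flox/flox alleles and no Cre. Knockout mice carried the same floxed alleles plus Cre recombinase under the promoter of skeletal alpha actin, a gene of the fibre, so other cells of the muscle are expected to keep Pofut1. The other 12 libraries were Cre controls of 17 months (Cre with wild-type Pofut1) and the 3 genotypes at 2 months, with 3 libraries in each group, and they entered the model to estimate the spread. The labels do not say whether each library came from a separate animal, so p-values measure the spread between libraries, part of which may be technical. Each group held libraries of both sexes by their Xist level, given below, so the libraries of a group did not all come from the same mouse.

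Pofut1 encodes the enzyme of the endoplasmic reticulum that puts O-fucose on EGF-like repeats, among them those of agrin and the Notch receptors. O-fucose is needed for efficient binding of Notch receptors to their ligands. In muscle, Notch signalling keeps satellite cells, the stem cells of the fibres, in quiescence. Agrin, released by the motor nerve, gathers acetylcholine receptors at the neuromuscular junction, where a few nuclei transcribe the receptor genes. When a fibre loses its nerve or is rebuilt after damage, receptor genes and fetal forms of the contractile proteins are expressed again along it.

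The promoters of 3 genes that rose in old knockout muscle are shown because this is where the myogenic factors act on receptor genes. They run from 250 bases before to 50 bases after the start site in the RefSeq annotation of GRCm38.p6, on chr2:73580289-73580588 (minus strand) for Chrna1, chr1:87205561-87205860 (plus strand) for Chrng and chr11:67078050-67078349 (plus strand) for Myh3. Capitals mark 2 forms of the E-box, the sequence bound by MyoD and myogenin, which were searched as CAGCTG and as CAGGTG on both strands.
Chrna1 promoter: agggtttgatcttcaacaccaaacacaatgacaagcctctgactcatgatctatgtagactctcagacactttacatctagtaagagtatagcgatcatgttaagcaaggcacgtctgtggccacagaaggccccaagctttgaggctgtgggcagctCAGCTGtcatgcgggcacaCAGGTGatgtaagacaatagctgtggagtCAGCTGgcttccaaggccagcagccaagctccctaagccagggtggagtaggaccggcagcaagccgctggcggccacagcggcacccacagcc
Chrng promoter: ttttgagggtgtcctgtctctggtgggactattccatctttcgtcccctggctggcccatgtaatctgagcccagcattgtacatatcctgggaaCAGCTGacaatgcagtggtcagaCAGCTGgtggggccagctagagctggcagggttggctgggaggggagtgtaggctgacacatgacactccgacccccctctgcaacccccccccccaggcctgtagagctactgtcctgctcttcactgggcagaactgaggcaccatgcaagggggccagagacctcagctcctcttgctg
Myh3 promoter: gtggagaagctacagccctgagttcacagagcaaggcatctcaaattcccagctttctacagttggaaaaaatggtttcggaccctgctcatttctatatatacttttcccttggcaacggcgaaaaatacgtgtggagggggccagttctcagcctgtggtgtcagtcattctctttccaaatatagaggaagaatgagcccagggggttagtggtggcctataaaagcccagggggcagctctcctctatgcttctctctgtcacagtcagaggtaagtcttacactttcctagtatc
The Chrna1 window held 2 copies of CAGCTG, at 92 and 44 bases before the start site, and 1 copy of CAGGTG at 73 bases before it. In the Chrng window, 2 copies of CAGCTG lay 155 and 132 bases before the start site. Neither form is in the Myh3 window. Among all 32851 promoter windows of the same length, 16.3% held CAGCTG and 20.2% held CAGGTG. Another motif, CCGGAA (the N-box bound by Ets factors, found in 14.9% of all windows), is in none of the 3 windows. A match describes the sequence and is not a measured binding site.

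The 6 libraries held 24901936 to 28463178 counts over 15224 genes, and levels are given as CPM, the counts scaled to a library size that was itself adjusted by trimmed mean (TMM). Acta1, skeletal alpha actin, stood between 14113 and 17912 CPM in all 6 libraries, and Myh4, the myosin of fast glycolytic fibres, between 54744 and 104802 CPM. Spearman correlations between any 2 of the 6 libraries were 0.961 to 0.985. Xist, which is transcribed from the inactive X, was high in knockout 17 and 40 and floxed 5 and 46, and low in knockout 45 and floxed 48, so each group held libraries of both sexes.

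Pofut1 itself did not separate the groups. Its level was 10.6, 16.3 and 10.5 CPM in knockout 17, 40 and 45, and 12.7, 14.8 and 13.5 CPM in floxed 5, 46 and 48. Knockout 17 and 45 were below all 3 floxed libraries, whereas the library labelled knockout 40 was above all of them and within the range of 15.8 to 18.3 CPM of the old Cre controls. The difference was -0.13 on the log2 scale with a standard error (SE) of 0.15, and it did not pass the test (edgeR adjusted p = 0.612). Without knockout 40 it was -0.37 with SE 0.13, a value given without a test because the low Pofut1 of the other knockouts is what sets it apart. At 2 months the knockout libraries stood at 9.3 to 9.61 CPM and the floxed libraries at 17 to 19.6 CPM, a log2 difference of -0.93 with SE 0.15 (adjusted p = 0.0863). The counts cover the whole gene, so they do not tell the deleted transcript in fibres from that of other cells. For this reason the main results below are given per library.

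**Figure D1:**
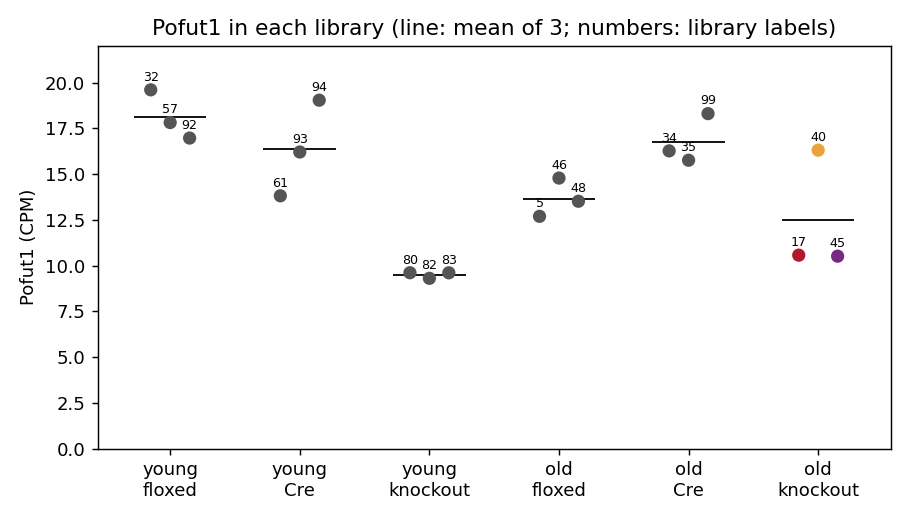
Pofut1 in CPM in each of the 18 libraries, by age and genotype, with the mean of each group as a line. Knockout 40 stands at 16.3 CPM, above the 3 old floxed libraries, and knockout 17 and 45 at 10.6 and 10.5 CPM, below them.

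Over the whole transcriptome, 570 of 15224 genes (3.74%) passed the test at an adjusted p under 0.05 (edgeR quasi-likelihood F-test), 268 of them higher (1.76%) and 302 lower (1.98%) in knockout muscle. Genes that passed are said below to have risen or fallen. In the authors' deposited table, 1719 genes have an adjusted p under 0.05, 696 higher and 1023 lower, and 555 of the 570 are among them, while 1501 genes have no adjusted p there. All 570 adjusted p-values lay between 0.0351 and the threshold of 0.05, although 4064 genes had an unadjusted p under 0.05. In 3798 genes (24.9%) the 3 knockout and 3 floxed libraries did not overlap. The knockout was higher in 1783 of them (11.7% of all genes) and lower in 2015, and 559 of the 570 were among the 3798. The log2 difference was positive in 8140 of the 15224 genes. A change beyond 1 on the log2 scale was seen in 101 of the 570. Taken one at a time, knockout 17, 40 and 45 lay above all 3 floxed libraries in 32.3%, 33% and 33.6% of all genes, and below all of them in 31.7%, 29.7% and 32.1%. Counts of list members beyond the floxed libraries in 1 knockout library are to be read against these shares. Those of members that rose, fell, did not overlap or had a positive difference are to be read against the values over all genes given above. The lists were chosen with earlier results of these data known, so a count over these shares is a description and not independent support.

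Which genes passed depended on individual libraries. Without knockout 40, 1438 genes passed (9.45%), 777 higher (5.1%) and 661 lower (4.34%). Of the 570, 503 passed there too, and none changed direction. With knockout 17 or knockout 45 left out, or floxed 46, no gene passed, and 3305, 3078 and 2400 genes had an unadjusted p under 0.05. Without floxed 48, 1 gene passed, and without floxed 5 the count was 1947. No call held in all 6 of these fits, and none of the 570 changed direction in any of them. A fit to the 6 libraries alone passed none (2965 unadjusted), and DESeq2 on all 18 libraries called 1751. The values below are therefore best read per library, with the calls as a guide.

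**Figure D2:**
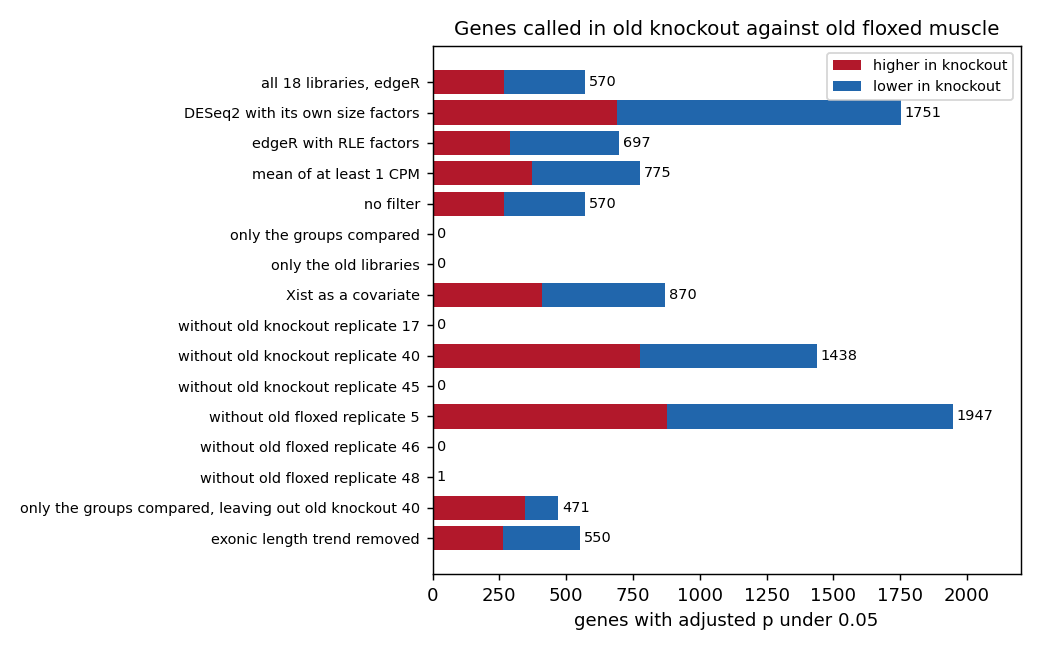
Number of genes with an adjusted p under 0.05 in old knockout against old floxed muscle (horizontal axis) under each setting, split into higher (red) and lower (blue). The count is 570 with all 18 libraries, 1438 without knockout 40 and 0 without knockout 17, knockout 45 or floxed 46.

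Some genes of the neuromuscular synapse were higher in all 3 knockout libraries, knockout 40 included. Of 22 measured genes of the acetylcholine receptor and synaptic membrane, 7 rose and none fell. In 10 the 3 knockout libraries lay above the 3 floxed ones, with none below. Over all genes, 1.76% rose, and in 11.7% the knockout libraries lay above in this way. The median log2 difference of the list was 0.56, against 0.03 over all genes, and relative to the floxed mean it was 0.51, 0.56 and 0.53 in knockout 17, 40 and 45. The floxed libraries themselves lay at 0.19, -0.10 and 0.00. Chrna1, the alpha subunit of the receptor (chr2:73563215-73580338), stood at 22.5, 18.9 and 46.4 CPM in knockout 17, 40 and 45. In floxed 5, 46 and 48 it was at 11.1, 10.7 and 11 CPM. All 3 knockout libraries were thus above a floxed level that hardly varied, and the log2 difference was 1.42 with SE 0.28 (edgeR adjusted p = 0.0351).

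Chrnd, the delta subunit, was at 3.61, 2.55 and 3.67 CPM in the knockout and at 1.48, 1.23 and 1.1 CPM in the floxed libraries. Its log2 difference was 1.37 with SE 0.25 (edgeR adjusted p = 0.0351). Chrng, the gamma subunit of the fetal receptor, which mature innervated fibres replace with epsilon, lies next to Chrnd on chromosome 1. It had 26, 3 and 71 counts in knockout 17, 40 and 45 against 1, 0 and 2 counts in floxed 5, 46 and 48, where a count of 0 allows up to 0.115 CPM. Knockout 40, at 0.118 CPM, was close to that limit, so the higher level of Chrng was carried by knockout 17 and 45, at 1.01 and 2.63 CPM. The fitted log2 difference was 4.91 with SE 1.1 (adjusted p = 0.0368), a size that depends on the prior count at such low values. Chrnb1, the beta subunit, did not pass (adjusted p = 0.062), with 26.7, 14.7 and 36.8 CPM in the knockout and 14.3 to 16.3 CPM in the floxed libraries. For Chrnb1, knockout 40 sat within the floxed range.

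Etv4, an Ets factor of the synaptic nuclei, rose from 0.389, 0.498 and 0.672 CPM in floxed 5, 46 and 48 to 1.63, 1.33 and 1.07 CPM in knockout 17, 40 and 45 (log2 1.36, SE 0.27, edgeR adjusted p = 0.0351). Utrn encodes utrophin, the relative of dystrophin concentrated at the synapse. It was at 168, 230 and 159 CPM in the knockout and 150, 110 and 110 CPM in the floxed libraries, highest in knockout 40 (log2 0.59, SE 0.15, adjusted p = 0.0445). Without knockout 40, Utrn no longer passed (adjusted p = 0.0743). The 2 other members that rose, named after their values were seen, were Erbb2, a co-receptor for the nerve-derived factor neuregulin (log2 0.72, edgeR adjusted p = 0.0476), and Ank3, ankyrin G (log2 0.62, edgeR adjusted p = 0.0378). Both were above all floxed libraries in each of the 3 knockout libraries.

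Some genes of the basal lamina and its receptors were also higher in the knockout libraries. Of 27 genes of the dystrophin complex, laminins and integrins, 6 rose and none fell, with a median of 0.45. The knockout libraries lay above the floxed ones in 9 and below them in 2. Of all 15224 genes, 1.76% rose, and 1783 lay above and 2015 below in this way. Lama2, the alpha chain of the laminin of muscle basal lamina, was at 149, 106 and 171 CPM in knockout 17, 40 and 45 and at 92.1, 70.8 and 95.1 CPM in floxed 5, 46 and 48 (log2 0.72, SE 0.16, edgeR adjusted p = 0.0368). Lamb1, a beta chain, was at 41.6, 32.3 and 59 CPM against 27.5, 16.3 and 19.8 CPM (log2 1.06, SE 0.23, adjusted p = 0.0368). Itga7, the laminin receptor of the fibre, was nearly equal in the 3 knockout libraries, at 67.8, 66.6 and 68.5 CPM, against 53.6, 38.3 and 43.9 CPM (log2 0.58, SE 0.14, adjusted p = 0.0413). In all 3 genes knockout 40 was above every floxed library. The other risers of the list, named after their values were seen, were Utrn, Sntb2 (a syntrophin) and Nid1 (nidogen), and in Nid1 knockout 40, at 67.9 CPM, was level with floxed 5 at 68.2 CPM.

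**Figure D3:**
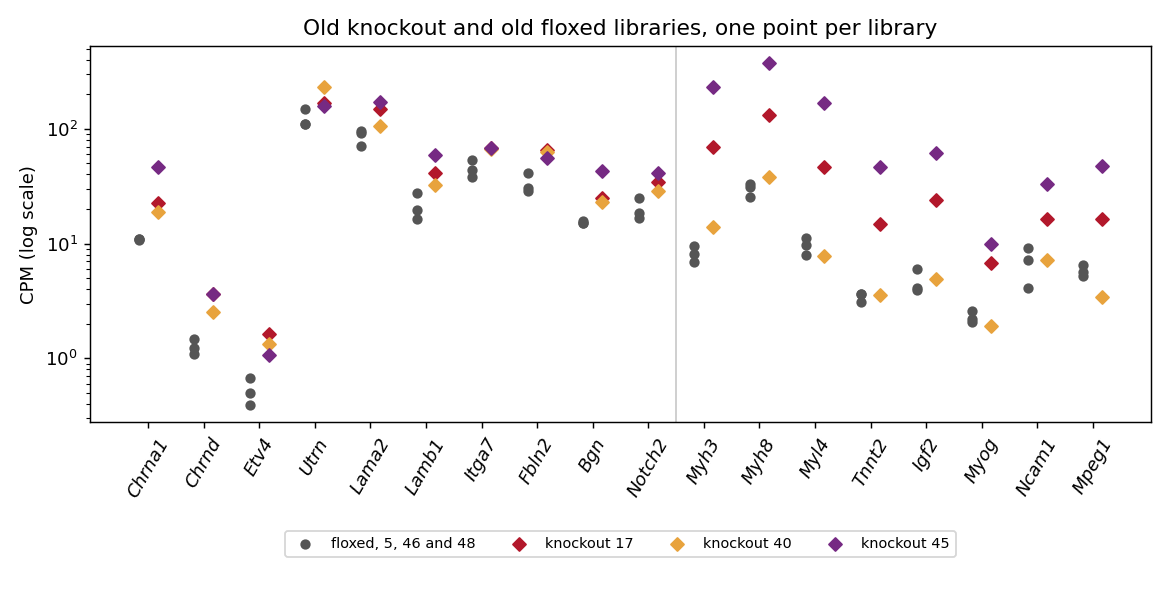
CPM on a log axis in the 3 old floxed libraries (grey circles) and the 3 old knockout libraries (coloured diamonds) for 18 genes. For the 10 genes left of the line every knockout library lies above every floxed library. For the genes on the right knockout 40 is the lowest knockout library. It is above all floxed libraries in Myh3 and Myh8, within their range in Tnnt2, Igf2 and Ncam1, and below all of them in Myl4, Myog and Mpeg1.

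Fetal fibre genes were among those with the largest changes, carried by knockout 17 and 45. Of 27 genes of developmental myosins and fetal fibres, 6 rose and none fell, and the median was 0.76. Without knockout 40, 14 rose and the median was 1.13. The shares of all genes that rose were 1.76% with and 5.1% without knockout 40. Relative to the floxed mean, the median stood at 0.77 in knockout 17 and 1.37 in knockout 45, but at -0.07 in knockout 40. In 17 genes knockout 17, in 20 knockout 45 and in 5 knockout 40 was above all 3 floxed libraries, against 32.3%, 33.6% and 33% of all genes, so that the count of knockout 40 was below its share over all genes. Myh3, embryonic myosin heavy chain (chr11:67078300-67102291), was at 69.8, 13.8 and 232 CPM in knockout 17, 40 and 45 and at 9.58, 8.12 and 6.9 CPM in floxed 5, 46 and 48. Knockout 40 was thus just above the highest floxed library, and knockout 45 was far higher (log2 3.68, SE 0.79, edgeR adjusted p = 0.0368).

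Myh8, perinatal myosin heavy chain, was at 131, 38.1 and 374 CPM in the knockout and 33, 25.5 and 31.3 CPM in the floxed libraries (log2 2.60, SE 0.53, edgeR adjusted p = 0.0365). Myl4, the myosin light chain of embryonic muscle and of the atria, stood at 46.7, 7.76 and 167 CPM against 7.98, 9.76 and 11.1 CPM, so that knockout 40 was below all floxed libraries (log2 2.94, SE 0.71, adjusted p = 0.0413). Tnnt2, cardiac and fetal troponin T, was at 14.8, 3.57 and 46.5 CPM against 3.08 to 3.64 CPM (log2 2.65, adjusted p = 0.0378). Igf2, a growth factor of fetal muscle, was at 24, 4.9 and 61.6 CPM against 3.91 to 5.96 CPM (log2 2.70, adjusted p = 0.0404). Tmem8c encodes myomaker, the membrane protein that myoblasts need to fuse. It had 52, 1 and 215 counts in knockout 17, 40 and 45 and 1, 3 and 4 counts in floxed 5, 46 and 48. The order was the same in every one of these genes, with knockout 45 highest, knockout 17 next and knockout 40 at or near the floxed level.

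Genes that answer loss of the nerve followed in part. Of 26 measured genes of the denervation response, 3 rose, which were the receptor genes Chrna1, Chrnd and Chrng, and without knockout 40 the counts were 11 higher and 1 lower. Of all genes, 1.76% rose with all libraries, and 5.1% rose and 4.34% fell without knockout 40. In knockout 17, 16 of the 26 were above all floxed libraries and 3 below, in knockout 45 the counts were 14 and 7, and in knockout 40 they were 6 and 12. Over all genes the shares above were 32.3%, 33.6% and 33% and those below 31.7%, 32.1% and 29.7%, so the 7 below in knockout 45 and the 6 above in knockout 40 were under the shares over all genes. The median of the list was 0.51, and 0.05 without knockout 17. Ncam1, the adhesion molecule spread over denervated fibres, was at 16.4, 7.17 and 32.7 CPM in the knockout and 9.23, 4.06 and 7.25 CPM in the floxed libraries (log2 1.45, edgeR adjusted p = 0.0525). Myog, myogenin, was at 6.72, 1.92 and 9.92 CPM against 2.06, 2.57 and 2.19 CPM (log2 1.44, adjusted p = 0.0718). Neither passed with all libraries, and both did without knockout 40, at adjusted p of 0.00734 and 0.0105. Dach2, a repressor known to be reduced after denervation and named after its values were seen, was the member that was lower without knockout 40, at 1.36, 10.5 and 2.30 CPM in knockout 17, 40 and 45 and 9.23, 16.4 and 14.6 CPM in floxed 5, 46 and 48. Among 23 satellite cell and myogenic genes, 1 rose, Itga7. Pax7, the transcription factor of satellite cells, stood at 0.47 to 1.33 CPM in the knockout and 0.428 to 0.92 CPM in the floxed libraries.

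Most matrix and macrophage genes were high in knockout 17 and 45 and not in knockout 40. Of 45 extracellular matrix genes, 3 rose and none fell, but 43 had a positive difference, and the median was 0.70. Over all genes, 1.76% rose and 8140 of 15224 had a positive difference. Without knockout 40, 23 rose, against 5.1% of all genes, and the median was 0.92. Fbln2 (fibulin) was at 65.2, 62.2 and 55.6 CPM in the knockout and 41, 28.7 and 30.4 CPM in the floxed libraries (log2 0.87, SE 0.16, edgeR adjusted p = 0.0351). Bgn (biglycan) was at 24.8, 23 and 43.2 CPM against 14.9 to 15.6 CPM (log2 0.99, SE 0.22, adjusted p = 0.0368). Mmp14, a membrane-bound matrix protease, was at 6.06, 4.78 and 12.4 CPM against 2.45 to 3.31 CPM (log2 1.37, adjusted p = 0.0368). These 3 were above the floxed libraries in knockout 40 as well, yet over the whole list knockout 40 had 12 genes above and 18 below all floxed libraries, while knockout 17 had 38 above and knockout 45 had 39. Over all genes, 33% were above and 29.7% below in knockout 40, so its count above was under that share and its count below was over it.

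Of 22 macrophage genes none passed with all libraries (13 with an unadjusted p under 0.05, and 1 called by DESeq2). Without knockout 40, 13 of them rose, against 5.1% of all genes. The summed level of the 22 genes was 456 and 831 CPM in knockout 17 and 45, 251 to 319 CPM in the floxed libraries and 221 CPM in knockout 40. In knockout 45 all 22 and in knockout 17 18 were above every floxed library, and in knockout 40 16 of 22 were below, against 33.6% and 32.3% of all genes above and 29.7% below in the same libraries. None of the 22 was at 0 in any of the 6 libraries. Mpeg1, perforin-2 of macrophages, was at 16.4, 3.45 and 47.8 CPM in knockout 17, 40 and 45 and 5.26 to 6.51 CPM in floxed muscle. In bulk muscle, more cells of a type and more RNA per cell cannot be told apart, and the part of macrophages in the fetal fibre and matrix results was not tested. All 7 antigen presentation genes had a positive difference, 1 of them called: Nlrc5, the activator of class I genes, at 6.02, 4.59 and 6.96 CPM against 2.84, 3.79 and 1.95 CPM (log2 1.04, edgeR adjusted p = 0.0427). Of 19 genes of fibro-adipogenic cells 2 rose, Fbln2 and the receptor Pdgfra, which was at 98, 71.1 and 109 CPM against 63.7, 43.3 and 53.3 CPM (log2 0.79, SE 0.15, adjusted p = 0.0351). For Pdgfra, knockout 40 was the lowest of the knockout libraries and still above every floxed one.

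**Figure D4:**
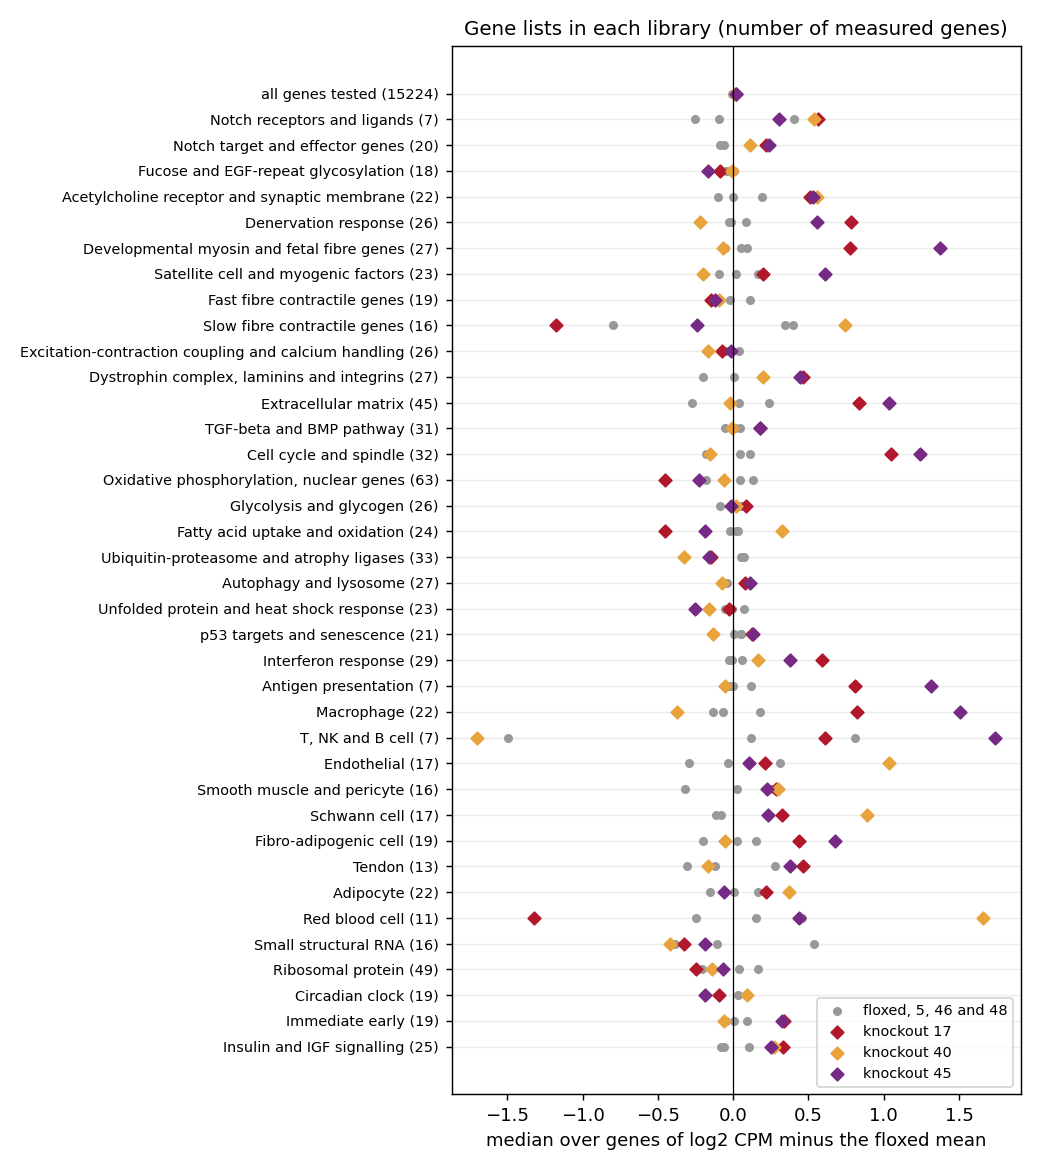
Median, over the measured genes of each list, of log2 CPM minus the mean of the 3 old floxed libraries, with 1 point per library. Synaptic membrane genes are at 0.51 to 0.56 in all 3 knockout libraries, while fetal fibre genes are at 0.77, -0.07 and 1.37 and macrophage genes at 0.82, -0.37 and 1.5 in knockout 17, 40 and 45.

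Cell cycle genes moved both ways. Of 32 genes of the cell cycle and spindle, 4 rose and 2 fell, 27 had a positive difference and the median was 0.95. Over all genes, 1.76% rose, 1.98% fell and 8140 of 15224 had a positive difference. The median was 1.05 and 1.24 in knockout 17 and 45 and -0.15 in knockout 40. Cdk6, the kinase that drives entry into the cycle, was at 5.94, 3.96 and 6.33 CPM in the knockout and 2.53, 1.88 and 2.44 CPM in the floxed libraries (log2 1.24, SE 0.18, edgeR adjusted p = 0.0351). Mcm3, Mcm4 and Mcm5, subunits of the replication helicase, rose by 0.55, 0.50 and 1.36 on the log2 scale (adjusted p = 0.0378, 0.0427 and 0.0455), and in all of them knockout 40 was above the floxed libraries. The 2 that fell act at the spindle. Tpx2, the activator of Aurora kinase A, was at 4, 4.59 and 5.89 CPM against 6.73, 12.8 and 22.7 CPM (log2 -1.54, SE 0.39, adjusted p = 0.0451), with floxed 48 far above floxed 5. Without knockout 40, Tpx2 no longer passed (adjusted p = 0.0513). Nedd1, which brings gamma-tubulin to the centrosome, was at 12.7, 18.2 and 14.7 CPM against 21.5, 32.4 and 27.9 CPM (log2 -0.84, SE 0.18, adjusted p = 0.0368).

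In the Notch pathway, 1 of 7 receptors and ligands and 1 of 20 target and effector genes rose, and none fell. The difference was positive in 6 of the 7 (median 0.48) and 19 of the 20 (median 0.22). Over all genes it was positive in 8140 of 15224 (median 0.03). Relative to the floxed mean, the median of receptors and ligands was 0.56, 0.54 and 0.30 in knockout 17, 40 and 45, and 0.40 in floxed 5. Notch2, a receptor, was at 34.3, 28.7 and 41 CPM in knockout 17, 40 and 45 and 25.1, 16.6 and 18.5 CPM in floxed 5, 46 and 48, with no overlap (log2 0.79, SE 0.19, edgeR adjusted p = 0.0406). Maml3, a coactivator of the Notch transcription complex, was at 4, 4.27 and 5.11 CPM against 2.41, 2.34 and 3.25 CPM (log2 0.74, SE 0.18, adjusted p = 0.0423). In old Cre 34, 35 and 99, with intact Pofut1, Maml3 was at 4.44, 4.21 and 3.26 CPM. Its log2 difference of knockout minus Cre was 0.17 (edgeR adjusted p = 0.717). The median of target and effector genes, relative to the floxed mean, was 0.22, 0.11 and 0.24 in knockout 17, 40 and 45. In those Cre libraries it was 0.19, 0.13 and 0.15, and that of receptors and ligands 0.54, 0.16 and 0.08. Notch1 did not pass (log2 0.59, SE 0.20, adjusted p = 0.0914). Nor did the transcriptional targets that report Notch activity. Hes1 was at 6.18, 8.78 and 11.6 CPM in the knockout and 6.85 to 9.85 CPM in the floxed libraries, Hey1 at 3.92, 4.27 and 2.59 CPM against 2.12 to 2.80 CPM, and Heyl at 1.83, 1.02 and 2.18 CPM against 0.919 to 1.84 CPM. Their log2 differences were 0.09 with SE 0.26, 0.58 with SE 0.29 and 0.23 with SE 0.35 (edgeR adjusted p = 0.845, 0.206 and 0.704), and the groups overlapped in each. Notch3 (log2 0.07, SE 0.33) overlapped as well. Of 18 genes of fucose and EGF-repeat glycosylation none passed (5 with an unadjusted p under 0.05, and 2 lower by DESeq2). Fut8, which adds core fucose to N-glycans, was the member with the smallest p, at 19.4, 21 and 19 CPM against 23.8, 27 and 26.6 CPM (log2 -0.38, SE 0.11, adjusted p = 0.0553).

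Growth factor signalling showed falls and rises. Of 31 TGF-beta and BMP genes, 2 fell, Bmpr1a and Smad3, and none rose, while over all genes 1.98% fell and 1.76% rose. In the same list 19 genes had a positive difference, and the median was 0.15. The knockout libraries lay above the floxed ones in 7 of its genes and below them in 6. Without knockout 40, 2 of its genes rose and 3 fell, against 5.1% and 4.34% of all genes. Bmpr1a, a BMP receptor, was at 85.2, 105 and 75.2 CPM in the knockout and 115, 157 and 142 CPM in the floxed libraries (log2 -0.64, SE 0.13, edgeR adjusted p = 0.0368). Smad3, the transducer of TGF-beta signals, was at 53.9, 59.5 and 47.3 CPM against 78.8, 83.5 and 75.9 CPM (log2 -0.57, SE 0.13, adjusted p = 0.0394). Of 25 insulin and IGF genes 2 rose, Igf2 and Pik3r1, the regulatory subunit of PI3-kinase, at 178, 142 and 165 CPM against 102, 97.4 and 75.2 CPM (log2 0.82, SE 0.19, adjusted p = 0.0378). In Bmpr1a, Smad3 and Pik3r1 alike, all knockout libraries lay on one side of all floxed libraries. Among 29 interferon response genes, Parp14 rose (log2 0.71, edgeR adjusted p = 0.0418), and 26 had a positive difference, against 8140 of 15224 over all genes. Relative to the floxed mean, the median of this list was 0.59, 0.17 and 0.37 in knockout 17, 40 and 45. In the old Cre controls 34, 35 and 99, with intact Pofut1, it was 0.15, 1.03 and 0.42. Pmaip1, the p53 target Noxa, rose among 21 genes of p53 and senescence (log2 2.14, adjusted p = 0.0426), from 3, 8 and 5 counts in floxed 5, 46 and 48 to 14, 11 and 46 counts in knockout 17, 40 and 45.

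Besides the fetal and receptor genes, the named rule gave 5 other genes among the strongest rises. Pkhd1, fibrocystin, had 79, 5 and 254 counts in knockout 17, 40 and 45 against 5, 4 and 4 in floxed 5, 46 and 48 (log2 4.66, edgeR adjusted p = 0.0368). Msln, mesothelin, had 40, 7 and 50 counts against 6, 2 and 3 (log2 3.12, adjusted p = 0.0461). For both, knockout 40 exceeded the highest floxed library by 1 count or less. Dnah8, a dynein heavy chain, was at 4.74, 1.18 and 3.22 CPM against 0.536 to 0.778 CPM (log2 2.26, adjusted p = 0.0368). Zdbf2 was at 6.14, 2.78 and 15.9 CPM against 1.49 to 2.61 CPM (log2 2.12, adjusted p = 0.0368), and Slc38a1, an amino acid transporter, at 1.87, 0.666 and 4.81 CPM against 0.506 to 0.613 CPM (log2 2.09, adjusted p = 0.0413). Knockout 40 was the lowest knockout library in all 5.

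The strongest falls were smaller, and knockout 40 shared them. The 8 genes named were Rn7s1 (a 7S RNA), Serpinb1c, Tpx2, Nudt11, Mettl11b, Kcnab1, Cuzd1 and Styx, with log2 differences from -1.64 for Rn7s1 to -1.04 for Styx. Mettl11b, a methyltransferase of protein N-termini, was at 13.5, 12.8 and 10.03 CPM in knockout 17, 40 and 45 and at 23.1, 42.5 and 25.8 CPM in floxed 5, 46 and 48 (log2 -1.33, SE 0.31, edgeR adjusted p = 0.0387). Kcnab1, a potassium channel subunit, was at 7.23, 6.59 and 8.63 CPM against 14.9, 13.7 and 24.6 CPM (log2 -1.24, SE 0.31, adjusted p = 0.042), and without knockout 40 it no longer passed (adjusted p = 0.0501). Styx, a catalytically inactive phosphatase, was at 23.5, 21.2 and 15.2 CPM against 28.5, 45.8 and 48.9 CPM (log2 -1.04, SE 0.23, adjusted p = 0.0368). Nudt11 had 15, 14 and 10 counts against 27, 42 and 37 (log2 -1.40, adjusted p = 0.0426). In none of these did the groups overlap, as the rule requires.

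Kcnab1 and Serpinb1c were also low in the old Cre controls, which carry Cre and intact Pofut1. Kcnab1 was at 8.33, 4.46 and 5.99 CPM there, and Serpinb1c at 1.06, 1.19 and 0.844 CPM against 0.738, 1.14 and 1.11 CPM in the knockout and 1.44, 3.18 and 4.17 CPM in the floxed libraries. Cd28, a costimulatory receptor of T cells, fell as well (log2 -1.61, SE 0.43, edgeR adjusted p = 0.0494). It was the called member of 7 lymphocyte genes, of which 5 had a positive difference, with a list median of 0.36. The call was lost in each of the 6 fits with 1 library left out (adjusted p = 0.0565 to 0.211), and without knockout 40 it was at 0.0747. Its level was 0.117, 0.118 and 0.296 CPM in the knockout and 0.662, 0.574 and 0.425 CPM in the floxed libraries. In the old Cre controls Cd28 was at 0.0786, 0.125 and 0.0767 CPM. Cd28 was also the only gene called at 2 months (1 of 15224, or 0.00657%), at 0.0697 to 0.114 CPM in young knockout and 0.756 to 1.22 CPM in young floxed muscle (log2 -3.27, SE 0.45, adjusted p = 0.0278). Low Cd28 was thus shared by the libraries of old mice with Cre, whether or not Pofut1 was floxed.

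Most mitochondrial genes stood slightly lower, and few passed. Of 63 nuclear genes of oxidative phosphorylation, 1 fell and 3 had a positive difference, with a median of -0.24. Over all genes, 1.98% fell. Relative to the floxed mean, the median of this list was -0.45, -0.06 and -0.22 in knockout 17, 40 and 45. It was -0.18, 0.13 and 0.05 in floxed 5, 46 and 48, and -0.23, 0.09 and -0.22 in old Cre 34, 35 and 99. Ndufb4, a subunit of complex I, was at 26.7, 31.1 and 28.4 CPM in the knockout and 31.4, 56.1 and 41.4 CPM in the floxed libraries (log2 -0.58, SE 0.15, edgeR adjusted p = 0.0456). In knockout 17, 59 of the 63 were below all floxed libraries, in knockout 45 38, and in knockout 40 9, with 10 above. The shares of all genes below were 31.7%, 32.1% and 29.7% in the same order, so in knockout 40 the count was under that share. Fatty acid genes had no call among 24 (2 with an unadjusted p under 0.05, and 0 by DESeq2), and knockout 17 and 45 had 18 and 15 of them below all floxed libraries, while knockout 40 had 20 above, against 31.7% and 32.1% of all genes below and 33% above. Of 33 genes of the ubiquitin and proteasome system, 2 fell, Psmb3 (log2 -0.45, edgeR adjusted p = 0.0395) and Ube2b (log2 -0.52, edgeR adjusted p = 0.0466). In this list 5 genes had a positive difference, against 8140 of 15224 over all genes, of which 1.98% fell. Single members also passed in other lists. Hspe1, a mitochondrial chaperonin, fell by 0.51, while Myom2 of the sarcomeric M-line and Hk1 (hexokinase) rose by 0.48 and 0.77, all on the log2 scale (adjusted p = 0.0368, 0.0384 and 0.0395).

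The oxidative phosphorylation list holds short transcripts (median exonic length 1908 bases, against 4355 over all genes), and levels moved with transcript length. The median log2 difference was -0.12 in the shortest of 5 equal groups by exonic length, taken over the 10806 genes with a mean log2 CPM above 1, -0.03, 0.00 and 0.04 in the next ones and 0.09 in the longest, and from 3.14% to 6.48% of their genes were called. The floxed libraries differed along the same axis. In the shortest group floxed 5 stood at -0.08 relative to the floxed mean, and floxed 46 and 48 at 0.04 and 0.05. With a smooth trend over length removed from every library, 550 genes passed, no oxidative phosphorylation gene did, and the median of that list was -0.13. For Ndufb4 the difference was then -0.49 with an adjusted p of 0.0543. Ribosomal protein genes had a median of -0.16 and no call among 49 (9 with an unadjusted p under 0.05, and 2 lower by DESeq2), and the median was -0.10 with the trend removed. Small structural RNAs had a median of -0.47 and 1 call of 16, Rn7s1, and a median of -0.14 with the trend removed, where Rn7s1 still passed (log2 -1.30, adjusted p = 0.0369). The medians of the synaptic, fetal fibre and matrix lists with the trend removed were 0.5, 0.75 and 0.69.

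**Figure D5:**
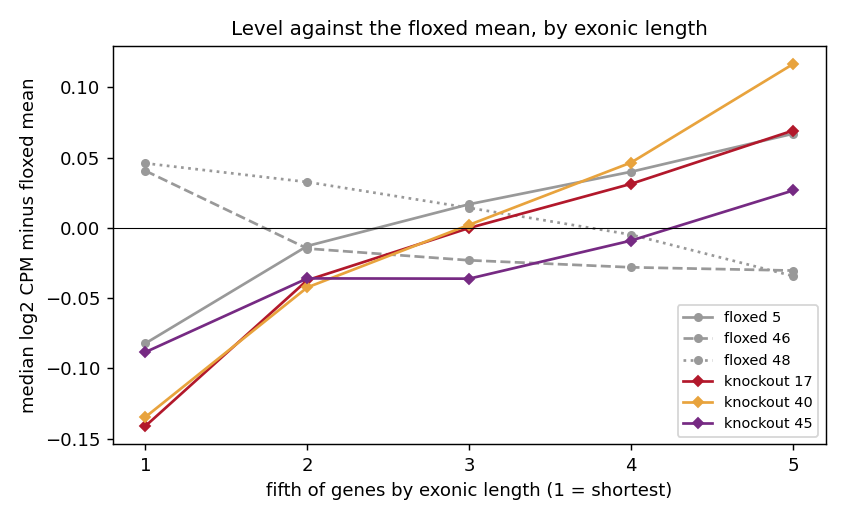
Median log2 CPM minus the floxed mean in each of the 6 libraries, over genes in 5 equal groups by exonic length from the shortest (1) to the longest (5). All 3 knockout libraries and floxed 5 run from below 0 to above 0, and floxed 46 and 48 run from above 0 to below 0.

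Knockout 40 also stood apart in genes of other cells and of slow fibres. Of 17 endothelial genes, 15 were above all floxed libraries in knockout 40, against 6 in knockout 17 and 2 in knockout 45. None of the 17 passed (6 with an unadjusted p under 0.05, and 4 higher by DESeq2). Of 17 Schwann cell genes, 14 were above in knockout 40 and 6 in each of knockout 17 and 45. In knockout 17, 40 and 45, 32.3%, 33% and 33.6% of all genes were above, so the counts of 6 were near the share over all genes. Haemoglobin Hba-a1 was at 1267 CPM in knockout 40, 55.2 and 258 CPM in knockout 17 and 45 and 149 to 227 CPM in the floxed libraries. Myh7, the slow myosin heavy chain, was at 17.9, 1185 and 196 CPM in knockout 17, 40 and 45 and at 934, 440 and 129 CPM in floxed 5, 46 and 48. Slow fibre genes therefore varied as widely within the groups as between them (16 genes, median -0.18, no call, 1 with an unadjusted p under 0.05 and 1 higher by DESeq2). Myh1 and Myh2, the other adult fast myosins, did not pass (log2 0.46 and -0.04, edgeR adjusted p = 0.303 and 0.97), nor did Myh4 (log2 0.22, adjusted p = 0.539). The part of slow fibre content, blood and endothelium in the results for knockout 40 was not tested.

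The other control and the other age share libraries or genotypes with this comparison, and their values stand beside it. Against old Cre controls, which share the 3 knockout libraries, 2 genes passed (0.0131%), and between old Cre and old floxed muscle also 2 (0.0131%). These were, named after their values were seen, LOC102640133 in both, Tns3 in the former and Sox12 in the latter. Old Cre levels lay between knockout and floxed for several genes. Myh3 was at 25.7, 19.3 and 16.5 CPM in Cre 34, 35 and 99, so each Cre library was above both knockout 40 and every floxed library. Chrna1 was at 16, 15.5 and 20.5 CPM there, above every floxed library and, for Cre 99, above knockout 40. Chrnd, at 1.41, 1.34 and 1.69 CPM, overlapped the floxed libraries. The log2 differences of knockout minus Cre were 2.36 for Myh3, 0.76 for Chrna1 and 1.15 for Chrnd (edgeR adjusted p = 0.247, 0.291 and 0.125).

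At 2 months, Myh3 was at 41.7, 17.6 and 5.82 CPM in knockout 80, 82 and 83 and at 9.998, 4.17 and 3.72 CPM in floxed 32, 57 and 92 (log2 1.86, edgeR adjusted p = 0.708). Chrna1 was at 24.3, 16.8 and 13.7 CPM against 11.3, 9.86 and 10.9 CPM, without overlap (log2 0.77, adjusted p = 0.643). Lamb1 and Notch2 overlapped between the genotypes at that age. Lamb1 was at 43.2 to 69 CPM in young knockout and 53.1 to 71.7 CPM in young floxed muscle, and Notch2 at 27.1 to 36.9 and 26.9 to 36.2 CPM, so that in both genes the old knockout level was nearer to the young levels than the old floxed level was. A test of whether the knockout difference was another one at 17 than at 2 months passed no gene (0%, 1922 with an unadjusted p under 0.05, smallest adjusted p 0.125, edgeR), while DESeq2 called 59. Without knockout 40, 6 genes passed, all with a more positive difference at 17 months, and Pdgfra was among them (log2 1.18, SE 0.19, adjusted p = 0.0399). The other 5, named after their values were seen, were Hr, Usp35, Ifngr1, Fam102b and Mfap5. For Pofut1, the log2 difference of knockout minus floxed was higher at 17 than at 2 months by 0.80 with SE 0.22 (edgeR adjusted p = 0.266). That fit included knockout 40.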

How the data were processed

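RNA from quadriceps muscle was depleted of ribosomal RNA and made into libraries with ScriptSeq v2, per the labels' protocols. The submitters' processing notes name STAR, HTSeq, DESeq2 and the builds GRCh38.p5 and GRCm38.p4; their versions, their roles and the strand setting are not stated in any source used here. The values used are the raw counts per gene as deposited by the authors for 15224 genes. The log2 fold changes and adjusted p-values deposited by the authors for the same comparison were read beside them.

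Counts were fitted in R 4.3.3 with edgeR 4.0.16 (TMM scaling, filterByExpr at a minimum count of 10, which removed no gene) with 1 mean for each of the 6 groups over 18 libraries, 12 residual degrees of freedom, quasi-likelihood F-tests and Benjamini-Hochberg adjustment over all genes at 0.05. The standard error is the log2 difference over the square root of F. With 3 libraries against 3, an exact permutation test could not go below 0.1, so none was used. The scripts were tested on simulated data. Exonic lengths came from GENCODE M21 (GRCm38) and were found for 14054 genes.

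Named genes were up to 8 called genes per direction with the largest change, at least 1 CPM in the higher group and no overlap between libraries, up to 6 per direction without the last condition, up to 4 members with the smallest p in each gene list, and a fixed set of Notch, receptor, myosin and control genes, among which no value of Chrne is given here. Of 39 gene lists, 37 had at least 3 measured members and were described by counts and medians, without a set test. The members and lists were chosen with earlier results of these data known. Alternatives were DESeq2 1.42.0, RLE scaling, a minimum mean of 1 CPM or no filter, fits to fewer libraries, Xist as a covariate (coded only as high or low) and each library left out in turn. A fit to 5 libraries without knockout 40 and a correction for exonic length were added after seeing the data.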

Additional observations from a re-analysis of the deposited data

How the results depend on the processing

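The count of genes called in old knockout against old floxed muscle, 570, stayed within 1.5 times of itself with RLE scaling, a minimum mean of 1 CPM, the fit to 5 libraries without knockout 40 and the length trend removed (471 to 775). The setting with no filter repeated the main fit, because the filter had removed no gene, so it checks nothing further. In the other settings the count moved further. The count was 1751 by DESeq2, 870 with Xist as a covariate, and 0 both with only the groups compared (2965 genes with an unadjusted p under 0.05) and with only the old libraries (3222). Leaving out 1 library gave 0 to 1947. The cause of these shifts was not tested. The count for the interaction with age, 0 (edgeR, 1922 unadjusted), was 59 by DESeq2, 2 with Xist as a covariate and 0 to 6 with 1 library left out. Pofut1 kept its direction in every setting (log2 -0.37 to -0.02) and did not pass in any that kept knockout 40. The fits without knockout 40 give a value and no test for Pofut1, because its Pofut1 level is what sets that library apart. No paired analysis was possible because the replicate numbers of the 2 groups are not shared. Among the named genes, none that passed with all libraries changed direction in any setting. Of those that did not pass, 7 changed direction when 1 library was left out, with ranges of -0.23 to 0.39 for Notch3, -0.15 to 0.30 for Hes1, -0.0056 to 0.49 for Heyl, -0.24 to 0.62 for Pax7, -0.57 to 0.27 for Myh2, -2.23 to 0.71 for Myh7 and -0.30 to 1.98 for Hba-a1 on the log2 scale. Myh7 was 0.039 with Xist as a covariate, and Hba-a1 -0.30 in the fit to 5 libraries. Counting error weighs most on genes under 1 CPM, such as Chrng.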
